A study of Homo sapiens with 17 samples.

Results

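The subtelomeric DNA examined here is the outermost 5 Mb of the human autosomes. It was cut into consecutive windows of 500 kb, 10 at each of 39 chromosome ends, counted inwards from position 0 on the short arm and from the highest position in any deposited list on the long arm. The short-arm starts of chromosomes 13, 14, 15, 21 and 22 were left out. This gave 390 windows of the 5566 complete windows of the 22 autosomes, or 195 Mb, 6.99% of the span. The members were chosen by position alone.

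The cells were IMR90, a line of human lung fibroblasts that stops dividing after a limited number of population doublings. Chromatin bound by each antibody was sequenced (ChIP-seq) in 17 libraries, of which 6 were for histone H3, 4 for trimethylated lysine 4 of histone H3 (H3K4me3), 6 for trimethylated lysine 27 (H3K27me3) and 1 for lamin B1. Proliferating cells were at doubling 24 and gave 2 H3, 1 H3K4me3, 4 H3K27me3 and the lamin B1 library. Senescent cells had been passaged to doubling 87 and were kept for 2 more weeks (2 H3, 1 H3K4me3 and 2 H3K27me3 libraries). For oncogene-induced senescence, IMR90 cells at doubling 15 carried the retroviral construct pLNC-ER:Ras, in which Ras is switched on by 4-hydroxytamoxifen, given at 100 nM. The Ras-induced cells gave 1 H3 and 1 H3K4me3 library, and control cells, also at doubling 15, gave the same. Whether the control cells carried the construct is not given in the labels. All groups are 1 cell line, so no spread between donors can be had.

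Chromosome ends are capped by telomeres, repeated DNA that shortens as fibroblasts divide. Loss of that cap is the classical trigger of replicative senescence, whereas an active Ras oncogene stops growth without long passage. The DNA next to the telomere is made of duplicated segments shared between chromosomes, and on many arms it passes inwards into gene-rich, GC-rich DNA. Lamina-associated domains (LADs) are long stretches that touch the nuclear lamina and are usually gene-poor. H3K4me3 normally marks active promoters, and H3K27me3 is laid down by Polycomb complexes over silent genes.

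The deposited data are 5 lists of regions in build hg18. One lists LADs of proliferating cells. The other 4 list changes: H3K4me3 mesas of replicative senescence, H3K4me3 mesas of Ras-induced senescence, and H3K27me3 mesas and canyons of replicative senescence. A mesa is taken here as a broad gain of a mark in senescent cells and a canyon as a broad loss, after the study's names for them. A header states the direction for the replicative H3K4me3 list alone, so for the other 3 lists of change it is assumed and could not be read from the files. The lists hold positions and no value per library, so the depth of each library is unknown, no replicate error can be attached to a region, and no test between conditions was possible. The values below are shares of base pairs covered by a list, and each SD is the spread over chromosomes or chromosome ends of the same cells. H3K4me3 and lamin B1 rest on 1 library per group.

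Mesas of both marks lay densely near the chromosome ends, and H3K27me3 canyons were sparse there. Ras-induced H3K4me3 mesas covered 50.6% of the outermost 5 Mb and 22.2% of the rest of the same chromosomes, a ratio of 2.28. H3K27me3 mesas covered 36.0% against 15.8%, also a ratio of 2.28. Replicative H3K4me3 mesas covered 25.6% against 15.5%, a ratio of 1.65. H3K27me3 canyons covered 17.9% against 37.0%, a ratio of 0.483. LADs differed least, with 67.9% against 60.7%. Together the outermost 5 Mb held 14.6% of the autosomal base pairs of Ras-induced mesas, 14.6% of those of H3K27me3 mesas, 11.03% of those of replicative H3K4me3 mesas, 7.75% of LAD base pairs and 3.503% of canyon base pairs, in 6.99% of the span.

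The direction was shared by most chromosomes. Averaged over the 22 autosomes, Ras-induced mesas covered 50.3 ± 16.98% (SD) of the ends and 24.1 ± 8.28% of the rest, and the ends were higher on 20 autosomes. The exceptions were chromosome 16, with 33.3% against 36.9%, and chromosome 17, with 19.5% against 26.1%. H3K27me3 mesas covered 35.5 ± 20.9% of the ends and 16.97 ± 6.84% of the rest, with the ends higher on 17 autosomes and lower on chromosomes 14, 16, 19, 20 and 21. Canyons covered 18.5 ± 14.8% against 35.1 ± 10.8%, with the ends lower on 18 autosomes and higher on chromosomes 3, 6, 14 and 20. The mean difference between ends and rest was 26.1 ± 16.9 points for Ras-induced mesas, 18.6 ± 20.8 points for H3K27me3 mesas and -16.7 ± 15.5 points for canyons, so for H3K27me3 mesas the spread over chromosomes exceeded the mean difference.

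Replicative H3K4me3 mesas and LADs separated ends from rest less clearly. The replicative mesas averaged 24.2 ± 12.4% of the ends and 16.7 ± 6.19% of the rest. Their ends were higher on 17 autosomes and lower on chromosomes 15, 16, 17, 19 and 22, the last with 0% of its outermost 5 Mb. LADs averaged 66.5 ± 14.3% of the ends and 60.7 ± 4.69% of the rest, higher at the ends on 15 autosomes and lower on chromosomes 4, 6, 13, 14, 16, 17 and 21. For both lists the SD of the difference over chromosomes (14.4 and 15.3 points) was larger than its mean (7.495 and 5.83 points). Leaving out any single autosome moved the pooled difference between 8.70 and 11.04 points for replicative mesas and between 27.2 and 30.2 points for Ras-induced mesas.

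**Figure D1:**
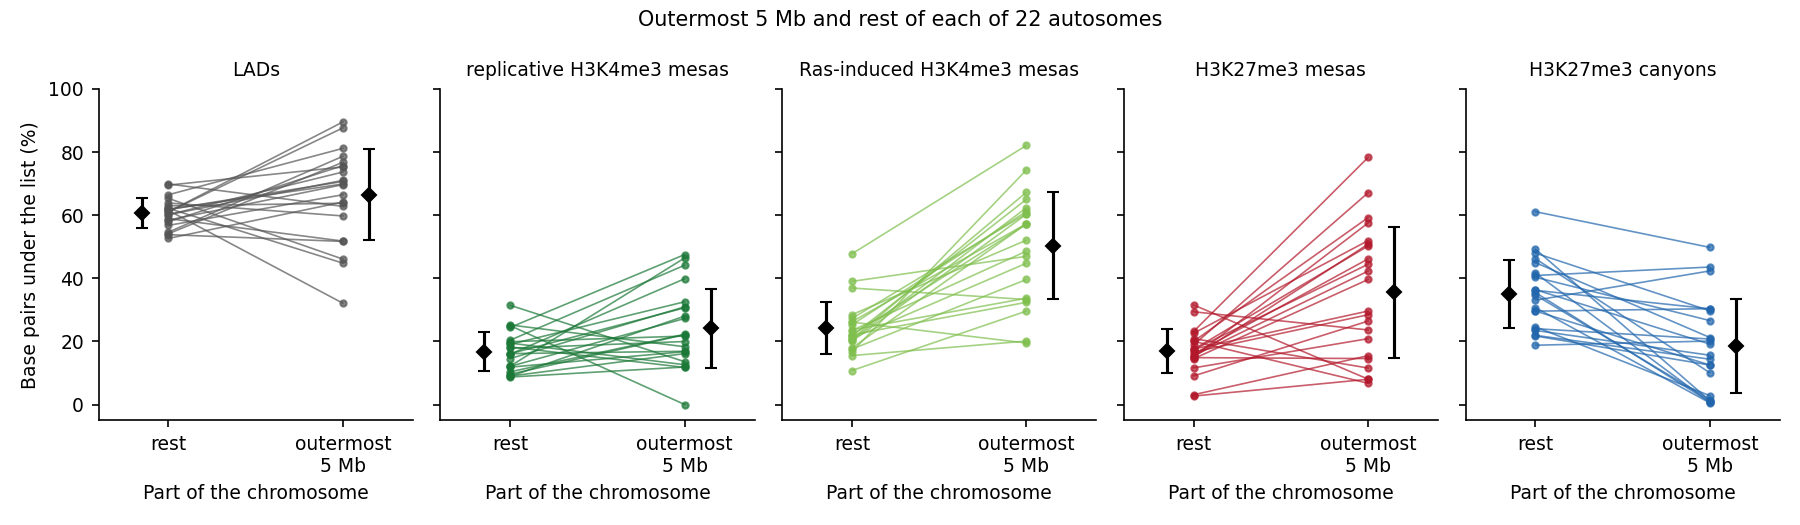
Cover of the outermost 5 Mb and of the rest of each autosome, as a percentage of base pairs, for the 5 lists. Each line joins the values of 1 autosome, and diamonds with bars are the mean and SD over 22 autosomes. Lines go up for 20 autosomes with Ras-induced H3K4me3 mesas and down for 18 with H3K27me3 canyons.

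Counted by windows, 205 of the 390 subtelomeric windows (52.6%) were at least 50% under Ras-induced H3K4me3 mesas, where 24.7% of all autosomal windows were. H3K27me3 mesas reached that share of a window in 132 (33.8%), against 16.1% of all windows. Replicative H3K4me3 mesas did so in 103 (26.4%), against 16.4% of all windows. Canyons did so in 70 (17.9%), against 35.2% of all windows, and LADs in 275 (70.5%), against 62.9% of all windows. No base of a Ras-induced mesa was found in 131 of the subtelomeric windows (33.6%) and in 67.1% of the windows of the rest. For replicative mesas these shares were 61.3% and 75.7%.

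Mesas of the 2 marks met in the same windows. Both Ras-induced H3K4me3 and H3K27me3 mesas reached 50% in 98 windows (25.1%), against 9.05% of all autosomal windows. Replicative H3K4me3 and H3K27me3 mesas met in 48 windows (12.3%), against 6.23% of all windows. Replicative and Ras-induced H3K4me3 mesas met in 85 windows (21.8%), against 9.94% of all windows. All 3 mesa lists met in 42 windows (10.8%), against 4.55% of all windows. Ras-induced mesas at 50% with replicative ones under 50% took 120 windows (30.8%), against 14.8% of all windows. The converse, replicative at 50% with Ras-induced under 50%, took 18 (4.62%), against 6.45%. Ras-induced mesas outside LADs, each by the same limit of 50%, took 36 (9.23%), against 5.25% of all windows. Such joint counts also depend on how common each list was at the ends. Windows at 50% under Ras-induced mesas numbered 205 at the ends and 1169 in the rest. Replicative mesas were under 50% in 120 and 701 of these, a similar share. LADs were under 50% in 36 and 256 of them, a smaller share at the ends. A further 98 windows (25.1%) reached 50% in none of the 4 lists of change, against 35.1% of all windows. In base pairs, 63.8% of the outermost 5 Mb lay under at least 1 mesa list and 34.6% of the rest did.

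The enrichment did not begin at the very end of the chromosomes. In the outermost 500 kb, Ras-induced mesas covered 16.9% of base pairs, with 24 of the 39 windows at 0. From 0.5 to 1 Mb their cover was 48.4%, and it stayed between 55.1% and 62.8% from 1 to 4 Mb before reaching 40.9% at 4.5 to 5 Mb. H3K27me3 mesas went from 12.1% in the outermost window to 38.0% in the next and then stayed between 36.2% and 43.8%. Replicative H3K4me3 mesas were highest farther in, with 9.39% in the outermost window, 15.1% in the next and 34.0% at 3 to 3.5 Mb. The outermost window therefore had less of each H3K4me3 list and of H3K27me3 mesas than the rest of the chromosomes on average, and it was the only one of the 10 in which Ras-induced or H3K27me3 mesas were below that average. At least 50% of the outermost window was under Ras-induced mesas at 6 ends, under replicative mesas at 4, under H3K27me3 mesas at 4, under canyons at 5 and in LADs at 33.

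LADs had the opposite profile, and canyons were below their 37.0% of the rest in each of the 10 windows. LAD cover was 81.6% in the outermost window, where 20 of 39 windows were wholly covered, and 59.1% at 4.5 to 5 Mb. It did not keep falling inwards, with 74.5% at 5 to 5.5 Mb. Over steps of 5 Mb, LADs averaged 67.9% in the first and 68.7% in the next. LADs began at position 0 on 16 of 17 short arms. They also set the highest position, from which distance was counted, on 20 of 22 long arms, so LADs touch the long-arm ends partly by construction. Canyon cover lay between 13.5% and 18.1% in the 8 windows up to 4 Mb and was 27.9% and 21.4% in the last 2. In the outermost window, 58.1% of base pairs were under none of the 4 lists of change, compared with 30.3% in the next and between 17.1% and 23.8% in the 8 after that. How well sequence reads can be placed in the duplicated DNA near telomeres is not recorded in the lists, and its part in the low cover of the outermost window was not tested.

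**Figure D2:**
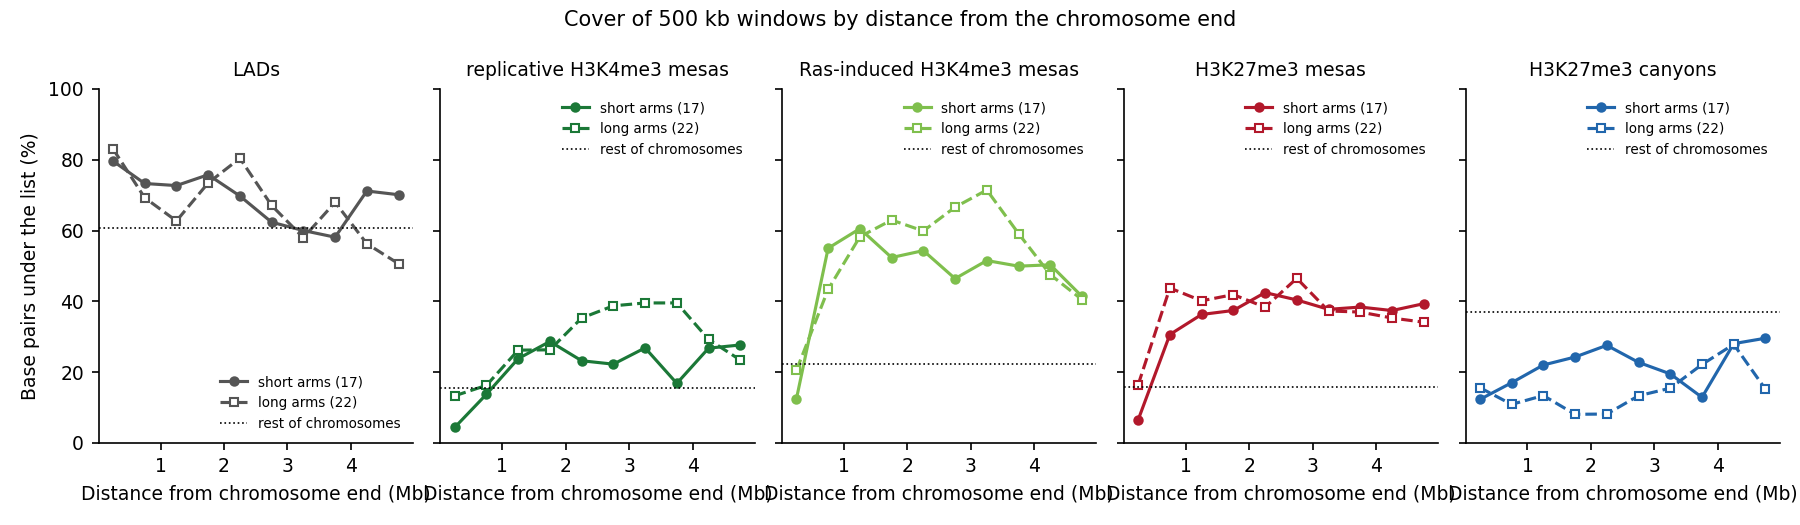
Cover of 500 kb windows (percentage of base pairs) against distance from the chromosome end in Mb, for short arms (filled circles, 17 ends) and long arms (open squares, 22 ends), with the rest of the chromosomes as a dotted line. Ras-induced and H3K27me3 mesas are below the dotted line or close to it in the outermost window and above it in the other 9.

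The nearest base of each list gives the same profile from the other side. The first Ras-induced mesa began at a median of 677 kb from the chromosome end, and at 15 of 39 ends it began within 500 kb. The first H3K27me3 mesa lay at a median of 579 kb and the first replicative H3K4me3 mesa at 2023 kb, with 5 ends having one within 500 kb. Canyons came nearer, at a median of 236 kb, with 24 ends having one within 500 kb. No H3K4me3 mesa in the autosomes was shorter than 501.0 kb, so no listed one could lie wholly within a single window, whereas the shortest H3K27me3 mesa and canyon measured 4.30 kb and 7.30 kb.

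Cover by mesas sloped off beyond 5 Mb rather than stopping there. Over the 39 ends, Ras-induced mesas averaged 50.6% in the first 5 Mb, 43.1% from 5 to 10 Mb, 36.1% from 10 to 15 Mb and 23.6% from 25 to 30 Mb. H3K27me3 mesas went from 36.0% and 34.6% in the outer 2 steps to 17.6% at 25 to 30 Mb. Replicative H3K4me3 mesas were not highest at the very end: they averaged 25.6% in the first step, 30.7% in the next and 13.03% at 25 to 30 Mb. Canyons went the other way, from 17.9% to 41.3%. The spread over ends was wide at each step, with an SD of 23.3 points for Ras-induced mesas in the first.

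Because of this slope, the size of the contrast depended on what the ends were set against. Against the stretch from 5 to 20 Mb of the same arms, in place of the whole rest, the difference was 14.6 points rather than 28.4 for Ras-induced mesas and 9.43 rather than 20.2 for H3K27me3 mesas. It was 3.405 rather than 10.1 points for replicative H3K4me3 mesas, -12.1 rather than -19.1 for canyons and 4.24 rather than 7.20 for LADs. With only the outermost 3 Mb counted as the end, the LAD difference was 11.7 points. At the 5 Mb line itself, cover by replicative mesas was 25.3% in the windows just inside and 42.6% in those just outside, and cover by Ras-induced mesas was 40.9% and 49.6%.

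**Figure D3:**
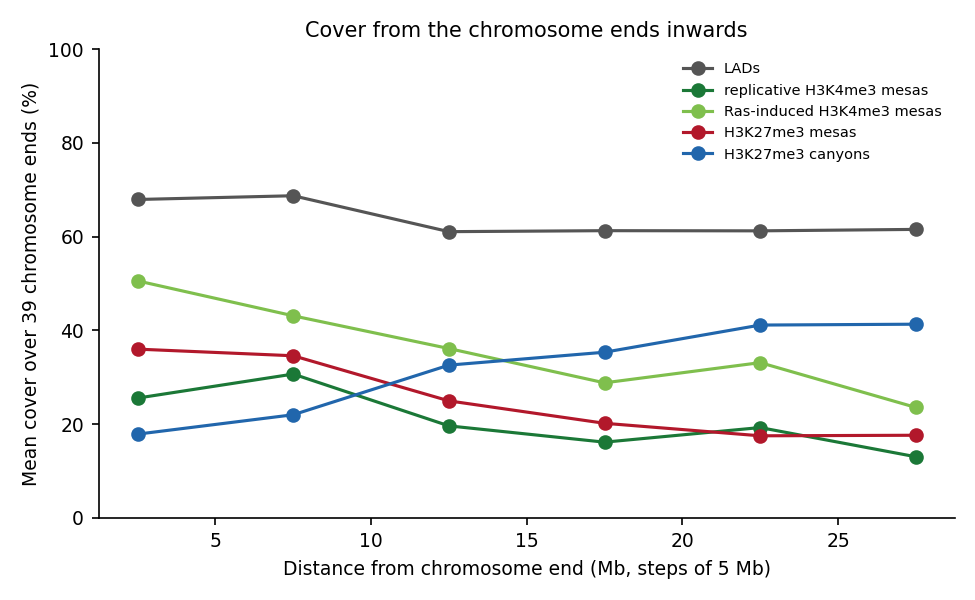
Mean cover over 39 chromosome ends (percentage of base pairs) in steps of 5 Mb from the chromosome end inwards, for the 5 lists. Ras-induced H3K4me3 mesas go from 50.6% to 23.6% and canyons from 17.9% to 41.3% between the first and the last step.

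The higher cover by mesas was seen inside LADs and outside them. LADs took 132 Mb of the outermost 5 Mb, and 62.5 Mb lay outside. Inside LADs, Ras-induced mesas covered 59.8% at the ends and 28.4% in the rest (higher at the ends on 19 of 22 autosomes), H3K27me3 mesas 46.3% and 24.0% (17 of 22), and replicative H3K4me3 mesas 32.9% and 22.8% (14 of 22). Outside LADs, Ras-induced mesas covered 31.0% at the ends and 12.6% in the rest (18 of 22). H3K27me3 mesas covered 14.2% and 3.08% there (16 of 22), and replicative H3K4me3 mesas 9.92% and 4.17% (12 of 22). Canyons were sparser at the ends both inside LADs, with 9.10% against 24.8%, and outside them, with 36.4% against 55.8%. LADs were mapped in the proliferating cells alone, so the LADs of Ras-induced cells and of their controls are unknown.

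Which LADs differed most between ends and rest depended on the list. The 173 LADs wholly inside the outermost 5 Mb had a median length of 370 kb, compared with 430 kb for 1803 LADs wholly in the rest. Among LADs of at least 1 Mb, placed by their midpoint, the 40 at the ends had 73.7% of base pairs under Ras-induced mesas, and the 484 in the rest had 28.7%. The same LADs had 64.0% and 29.2% under H3K27me3 mesas and 40.4% and 23.6% under replicative H3K4me3 mesas, and 2.89% and 15.8% under canyons. For LADs under 300 kb the values were 27.4% (74 LADs) and 17.1% (682 LADs) for Ras-induced mesas and 7.69% and 7.12% for replicative mesas, while H3K27me3 mesas covered 14.4% and 2.61%, and canyons 32.3% and 62.3%. In points, both H3K4me3 lists and H3K27me3 mesas thus differed most in LADs of at least 1 Mb and canyons in those under 300 kb. As a ratio, H3K27me3 mesas differed most in LADs under 300 kb and canyons in LADs of at least 1 Mb. These length classes were chosen after the lists had been examined.

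**Figure D4:**
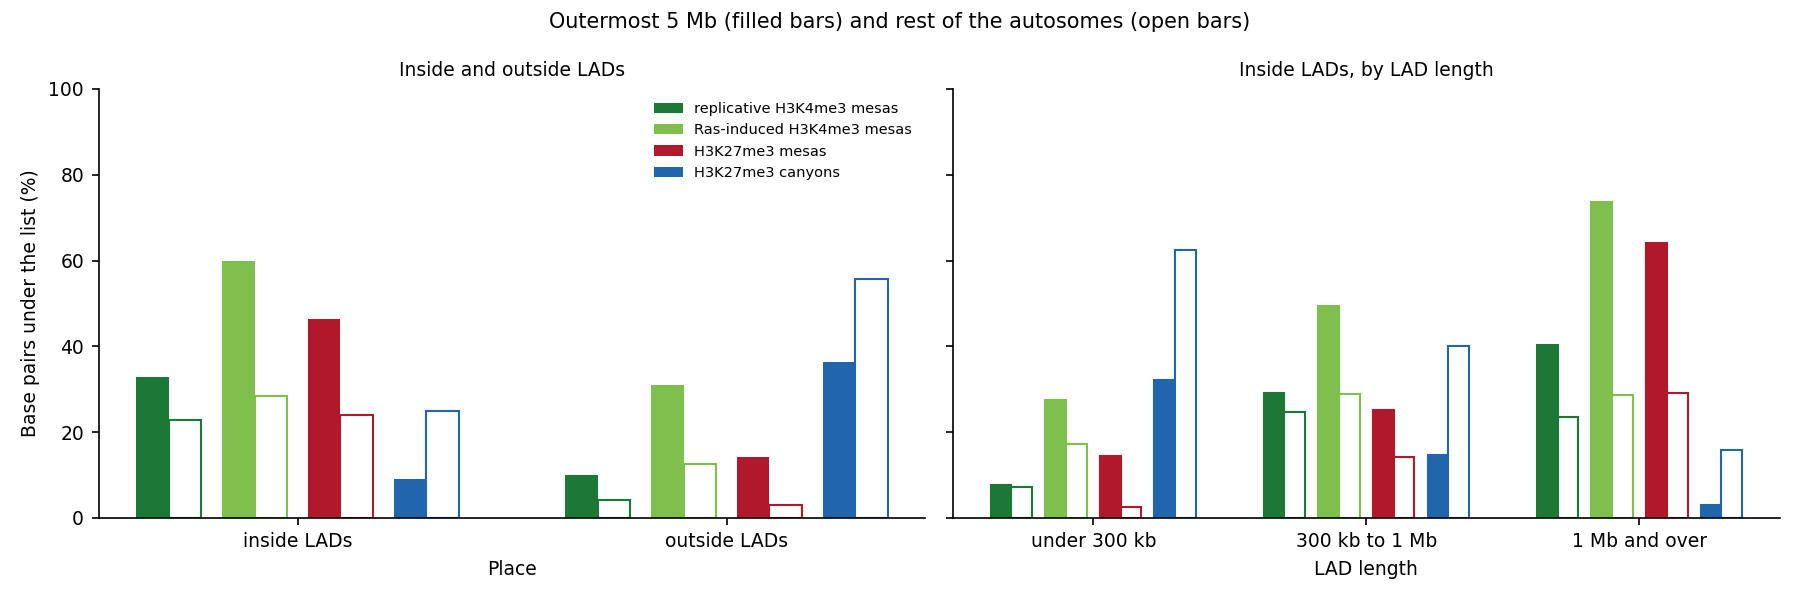
Percentage of base pairs under each list of change, inside and outside LADs (left) and inside LADs by LAD length (right). Filled bars are the outermost 5 Mb and open bars the rest of the autosomes, each 1 value over all 22 autosomes. On the right, whole LADs are placed by their midpoint, so base pairs on the other side of the 5 Mb line are included. For Ras-induced H3K4me3 mesas the filled bar exceeds the open bar in every class, most in LADs of at least 1 Mb (73.7% and 28.7%).

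The share of each mesa list that lay inside LADs was similar at the ends and in the rest. It was 87.6% and 89.4% for replicative H3K4me3 mesas, 80.4% and 77.7% for Ras-induced ones and 87.3% and 92.3% for H3K27me3 mesas. For canyons it was 34.6% and 40.8%. These differences are small, and 3 of the 4 changed sign with another setting. Those of both H3K4me3 lists also moved by more than 1.5 times when single chromosomes were left out, away from -1.88 points for replicative mesas and 2.62 points for Ras-induced mesas. For replicative mesas the value was -0.189 points without chromosome 16, -0.705 without chromosome 3, -1.15 without chromosome 21, -1.21 without chromosome 6, -3.01 without chromosome 5 and -3.12 without chromosome 10. For Ras-induced mesas it was 1.23 points without chromosome 5, 1.57 without chromosome 2, 4.04 without chromosome 6 and 4.57 without chromosome 21. The canyon value, -6.18 points over all autosomes, was -3.72 without chromosome 6.

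A larger share of replicative mesas lay under Ras-induced mesas at the ends, where Ras-induced mesas also cover more. Of replicative H3K4me3 mesa base pairs, 80.9% lay under Ras-induced mesas at the ends and 57.5% in the rest, higher at the ends on 19 of the 21 autosomes with both. Against 5 to 20 Mb of the same arms the difference was 12.1 points rather than 23.5. As a share of the other list, 40.9% of Ras-induced mesa base pairs lay under replicative mesas at the ends and 40.2% in the rest. Ras-induced mesas covered 50.6% of the ends and 22.2% of the rest to begin with. The share of replicative mesas under them was 1.60 times this cover at the ends and 2.59 times in the rest. Relative to cover, the overlap was therefore smaller at the ends, though such a multiple has a lower ceiling where cover is larger. The part of the cover in the larger overlap was not tested.

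H3K27me3 mesas also lay under Ras-induced mesas for a larger share at the ends, but for a smaller multiple of the cover there. At the ends 72.3% of H3K27me3 mesa base pairs lay under Ras-induced mesas, and in the rest 51.0%. These shares were 1.43 and 2.30 times the cover by Ras-induced mesas in the same place. Here too such a multiple has a lower ceiling at the ends, where cover is larger, so the smaller multiple alone does not show a weaker overlap. As a share of Ras-induced mesas the values were 51.5% and 36.3%. Of replicative H3K4me3 mesa base pairs, 51.2% at the ends and 39.1% in the rest lay under H3K27me3 mesas, and 10.1% and 16.3% under canyons. As multiples of the cover in the same place, these were 1.42 and 2.48 for H3K27me3 mesas and 0.566 and 0.441 for canyons. Canyon base pairs lay under Ras-induced mesas for 36.3% at the ends and 15.5% in the rest. Relative to the cover by Ras-induced mesas in the same place, these shares were 0.717 and 0.6998 times as large. Canyons thus fell short of that cover to a similar degree at the ends and in the rest. Ras-induced H3K4me3 and replicative H3K27me3 were mapped in different experiments, so an overlap places both changes at 1 position and not in 1 cell.

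Single ends ranged widely. Ras-induced mesas covered between 0% and 94.4% of an end (median 45.8%), and 35 of 39 ends had more than the rest of their own chromosome. H3K27me3 mesas ranged from 0.172% to 94.3% (median 30.4%), with 24 ends above their own rest. Canyons ranged from 0% to 86.8% (median 6.24%), with 29 ends below their own rest, and 19 ends had under 5%. Replicative H3K4me3 mesas ranged from 0% to 63.9% (median 23.1%), with 28 ends above their own rest, and LADs from 22.6% to 100% (median 69.6%), with 25. Ras-induced mesas exceeded replicative ones at 34 of 39 ends. Over the 39 ends, cover by H3K27me3 mesas and by LADs had a Pearson r of 0.69 (Spearman rho = 0.64), and Ras-induced and H3K27me3 mesas 0.47 (rho = 0.45). These are descriptions over ends of the same libraries.

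**Figure D5:**
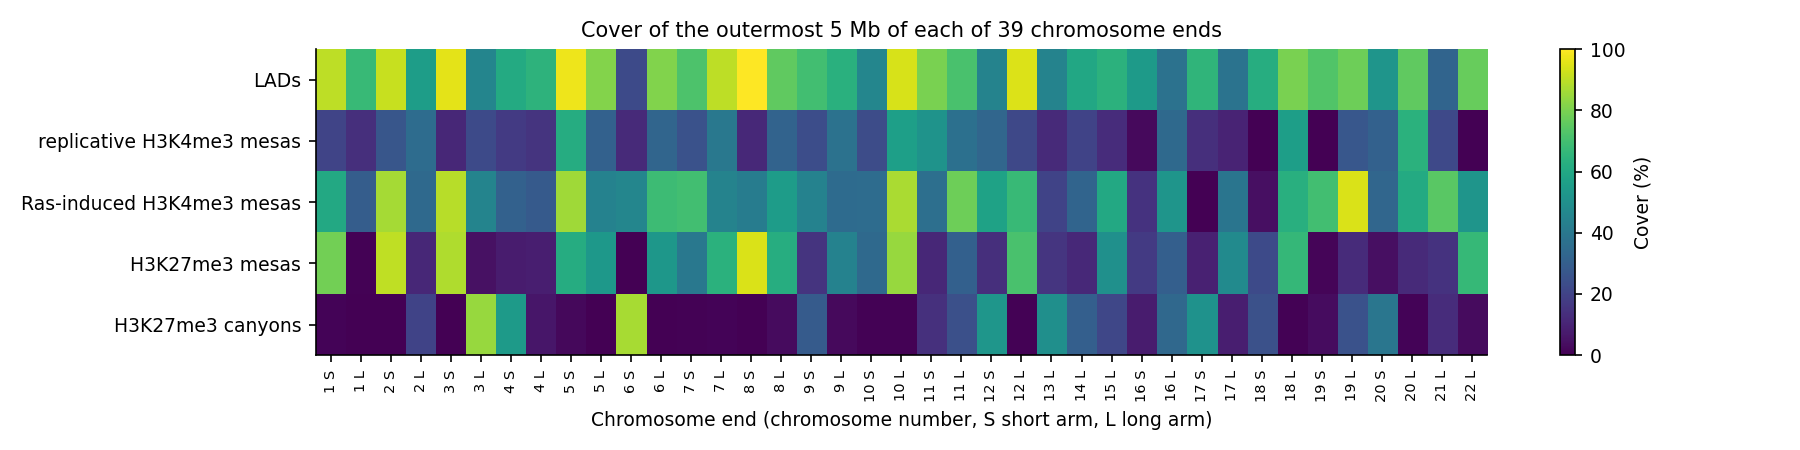
Cover of the outermost 5 Mb of each chromosome end (columns, short arm S and long arm L) by the 5 lists (rows), coloured from 0% to 100% of base pairs. The short arms of chromosomes 2, 3 and 5 and the long arm of chromosome 10 are bright in the Ras-induced H3K4me3 and H3K27me3 mesa rows and dark in the canyon row. H3K27me3 mesas and canyons share no base pair at the ends, so high cover by 1 limits the other. The long arm of chromosome 15, at least 50% under both of these mesa lists, had 21.2% under canyons.

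At 11 ends both Ras-induced H3K4me3 and H3K27me3 mesas covered at least 50%: the short arms of chromosomes 1, 2, 3 and 5 and the long arms of chromosomes 6, 8, 10, 12, 15, 18 and 22. The short-arm end of chromosome 3 had 89.3% under Ras-induced mesas and 88.0% under H3K27me3 mesas, with 95.8% in LADs, 11.2% under replicative H3K4me3 mesas and no canyon. The rest of chromosome 3 had 20.7% and 16.0% under the first 2. The longest LAD wholly inside an end lay there, at 350001 to 4730000 (4.38 Mb), and of it 95.8% was under Ras-induced and 94.3% under H3K27me3 mesas. The second longest Ras-induced mesa of the ends, at 472001 to 3169999 (2.70 Mb), lay in that LAD with none of it under replicative mesas. Chromosome 2 was similar at its short-arm end, with 86.3% under Ras-induced and 90.4% under H3K27me3 mesas, 26.7% under replicative mesas and no canyon.

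The end of chromosome 10 on its long arm had all 3 kinds of mesa. Ras-induced mesas covered 87.2%, H3K27me3 mesas 84.5% and replicative H3K4me3 mesas 56.6%, and 5 of its 10 windows reached 50% in all 3 lists. It also departed from the usual profile at the very end: its outermost window was 83.9% under Ras-induced and 98.7% under replicative mesas. Chromosome 5 also had 5 such windows at its short-arm end, with 85.8% under Ras-induced, 61.9% under H3K27me3 and 61.7% under replicative mesas. It held the longest Ras-induced mesa lying wholly inside an end, at 1704001 to 4521999 (2.82 Mb), of which 100% lay in a LAD, 90.5% under H3K27me3 mesas and 68.9% under replicative mesas. No other end had more than 4 windows at 50% in all 3 lists.

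The long arms of chromosomes 18 and 22 differed in replicative mesas. On chromosome 18, Ras-induced mesas covered 63.2% and replicative mesas 56.1% of the long-arm end. The longest H3K27me3 mesa wholly inside an end lay there, at 71982401 to 75306099 (3.32 Mb), with 67.5% under Ras-induced and 35.2% under replicative mesas. On chromosome 22, Ras-induced mesas covered 52.1% of the end and H3K27me3 mesas 67.2%, and replicative mesas covered none of it, although the rest of that chromosome held some. The third longest Ras-induced mesa of the ends, at 45923001 to 48527999 (2.61 Mb), lay on that arm of chromosome 22 and was 96.9% under H3K27me3 mesas.

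At 5 ends Ras-induced mesas covered at least 50% and H3K27me3 mesas under 20%: both ends of chromosome 19, the short arm of chromosome 12 and the long arms of chromosomes 20 and 21. The long-arm end of chromosome 19 had the most Ras-induced mesa of the 39, with 94.4%, and each of its 10 windows reached 50%. H3K27me3 mesas covered 12.3% of it, canyons 25.3% and replicative mesas 27.2%. Its outermost window was 95.7% under Ras-induced mesas and 85.8% under canyons. On its short arm chromosome 19 had 69.9% under Ras-induced mesas and no replicative mesa. On chromosome 20 the long-arm end had the most replicative mesa of the 39, with 63.9%, and 60.9% under Ras-induced mesas. The rest of chromosome 19 was itself 47.8% under Ras-induced mesas.

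The converse, H3K27me3 mesas of at least 50% with Ras-induced mesas under 50%, was found at 3 ends. The short-arm end of chromosome 8 lay wholly in LADs and was 94.3% under H3K27me3 mesas, the highest value of the 39, with 42.1% under Ras-induced and 11.54% under replicative mesas. At the long-arm end of chromosome 7, H3K27me3 mesas covered 63.8% and Ras-induced mesas 44.6%. At the long-arm end of chromosome 5 the values were 53.2% and 44.3%. That end held the longest replicative H3K4me3 mesa lying wholly inside an end, at 176994001 to 178554999 (1.56 Mb). It was 72.9% under Ras-induced and 52.0% under H3K27me3 mesas and lay wholly in LADs.

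Canyons took most of a minority of ends. Canyons covered at least 50% of 5 ends: the long arm of chromosome 3 and the short arms of chromosomes 4, 6, 12 and 17. The short-arm end of chromosome 6 had 86.8% under canyons, 22.6% in LADs, the lowest LAD value of the 39, and 0.172% under H3K27me3 mesas. It still had 45.8% under Ras-induced mesas. The long-arm end of chromosome 3 had 84.7% under canyons and 4.36% under H3K27me3 mesas, opposite to the short-arm end of the same chromosome. The longest canyon wholly inside an end lay there, at 195985001 to 198610499 (2.63 Mb), with 46.4% under Ras-induced mesas. No base pair of the ends was in both H3K27me3 mesas and canyons.

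Few ends lacked Ras-induced mesas. The short-arm end of chromosome 17 had none within 5 Mb, its first beginning at 5423 kb, and had 51.1% under canyons and 13.5% under replicative mesas. Chromosome 18 had, at its short-arm end, 4.24% under Ras-induced mesas and no replicative mesa nearer than 13153 kb, with 22.5% under H3K27me3 mesas. On the short arm of chromosome 16 the end had 14.5% under Ras-induced and 2.40% under replicative mesas, against 36.9% and 25.2% of the rest of that chromosome. Replicative mesas were absent from 3 ends, the short arms of chromosomes 18 and 19 and the long arm of chromosome 22.

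Regions wholly inside the ends were more frequent, and those of the 3 mesa lists had longer medians. There were 80 Ras-induced mesas wholly inside the ends, or 0.410 per Mb, with a median length of 954 kb, against 0.254 per Mb and 728 kb in the rest. The 60 replicative mesas (0.308 per Mb, against 0.1997) had a median of 719 kb against 679 kb. H3K27me3 mesas numbered 208 (1.07 per Mb, against 0.455), with medians of 64.9 kb and 47.4 kb. Canyons went the other way in length: 121 lay wholly inside the ends (0.621 per Mb, against 0.476), with a median of 21.6 kb against 147 kb. Regions that crossed the 5 Mb line are in neither count. They were 17 Ras-induced mesas (median 812 kb), 9 replicative mesas (1002 kb), 14 H3K27me3 mesas (1577 kb) and 9 canyons (1417 kb). For H3K27me3 mesas and canyons these were far longer than the regions counted, which limits the comparison of lengths.

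Short and long arms differed by less than the spread over chromosomes. On the 17 autosomes with both ends, replicative H3K4me3 mesas covered 21.4 ± 16.7% (SD) of short-arm and 33.3 ± 15.1% of long-arm ends, a difference of -11.9 ± 21.6 points, with the long arm higher on 11. For Ras-induced mesas the values were 47.4 ± 27.4% and 54.5 ± 19.9%, and for H3K27me3 mesas 34.6 ± 34.2% and 38.6 ± 26.8%. Canyons covered 21.6 ± 26.5% and 12.5 ± 21.5%, and LADs 69.3 ± 21.6% and 70.2 ± 17.7%. With the outermost 10 Mb the difference was -2.83 points for replicative mesas and 1.23 points for canyons. Leaving out chromosome 18 moved the Ras-induced difference from -7.10 to -3.86 points and chromosome 10 to -4.30, while leaving out chromosome 2 moved it to -10.8. The H3K27me3 mesa difference, -3.96 points, lay between -9.43 (without chromosome 3) and -0.606 (without chromosome 12) when 1 autosome was left out. It was larger by over 1.5 times also without chromosomes 1, 2 and 8, and smaller by over 1.5 times also without chromosomes 6, 9, 10, 17 and 18. The canyon difference, 9.04 points, was 14.9 without chromosome 3 and 4.202 without chromosome 6.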

How the data were processed

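ChIP-seq reads were aligned with Bowtie 0.12.5 and build hg18 was used, per the submitters' processing notes. The authors deposited 5 region lists, each giving chromosome, start and end and no measured unit. The LAD list also has a score column, deposited as 0 throughout and not used here. Header lines name lamin B1 and merging for LADs, and more H3K4me3 for the replicative mesas. How regions were called, with which thresholds and whether against H3, and whether libraries were pooled, is not given in the sources used here. Depth is unknown.

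Overlapping regions were merged within a list, and shared base pairs were counted with Python 3.11.15 and NumPy 2.4.6, tested on simulated data. The rest of a chromosome ran from 5 Mb (from the lowest start in any list, where the start was left out) to 5 Mb before the highest end. A window counted for a list at 50% or more. Named ends were the 3 with the most and the 3 with the least cover, and named regions the 3 longest wholly inside the ends. Other named ends were chosen after their values were seen. The windows and lists were chosen with earlier results of these data known. With no value per library, no test was run. Alternatives were the outermost 3 or 10 Mb, no empty stretches over 3 Mb, starts from the lowest listed position, no outermost window, equal weight per chromosome, the stretch from 5 to 20 Mb as comparison, regions of at least 100 kb, each autosome left out, and other window settings. Genes and sequences are not named, since no hg18 annotation was used.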

Additional observations from a re-analysis of the deposited data

How the results depend on the processing

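The contrasts of ends and rest in cover kept their direction for the 5 lists under every setting run. There were 130 values under alternatives other than leaving out a chromosome. Of these, 117 moved by less than the distance from centre to limit of a 95% binomial interval over windows (window counts: by less than 1.5 times). A further 7 moved by more and 6 changed sign. That interval is only a yardstick: neighbouring windows share regions and libraries and are not independent, so it shows no stability. Some of the 117 values also could not move by construction. Equal weights and the removal of empty stretches, none of them inside the ends, cannot alter short minus long arm. That removal cannot alter the share of a list either. The limit on region length cannot alter cover by either H3K4me3 list, whose regions are all longer. Counting starts from the lowest listed position shifted only the short-arm end of chromosome 16, by 110 kb. LADs began at position 0 on the other short arms used, so values under that setting could hardly move. Set against 5 to 20 Mb of the same arms, the differences were 3.405 points for replicative H3K4me3 mesas, 14.6 for Ras-induced mesas, 9.43 for H3K27me3 mesas, -12.1 for canyons and 12.1 for the overlap of the H3K4me3 lists. With 10 Mb ends, short minus long arm was -2.83 points for replicative mesas and 1.23 for canyons, and for LADs it turned to 0.0947 from -0.935. The share of replicative mesas in LADs, ends minus rest, turned from -1.88 to 2.44 points with 3 Mb ends and 1.17 with 10 Mb ends. That of Ras-induced mesas turned from 2.62 to -0.371 with equal weights, and that of canyons from -6.18 to 0.650 with 3 Mb ends and 11.8 with equal weights. The cause was not tested.

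Leaving out 1 autosome at a time gave ranges of 6.01 to 8.53 points for LADs, 18.3 to 22.05 for H3K27me3 mesas and -20.8 to -17.4 for canyons. For the difference of short and long arms it gave -4.13 to 2.66 points for LADs, with 6 changes of sign, -9.43 to -0.606 for H3K27me3 mesas and 4.202 to 14.9 for canyons. Without chromosomes 6, 7, 10, 12, 18 and 20 the LAD value was 2.66, 0.132, 1.99, 2.14, 0.116 and 0.457. No paired analysis was possible because the lists carry no value per library. Depth is unknown, so whether uncovered stretches lacked a change or reads cannot be told apart.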

Other observations

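Chromosome 3 had its ends at opposite extremes, a contrast chosen after the values were seen. Its short-arm end was 88.0% under H3K27me3 mesas and 0% under canyons, and its long-arm end 4.36% and 84.7%. LADs covered 95.8% of the former and 45.6% of the latter. Chromosome 6 was arranged the other way round, with 86.8% of its short-arm end and 0.374% of its long-arm end under canyons, and LAD cover of 22.6% and 81.0%.

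Several ends lay mostly outside the 4 lists of change. At the long-arm end of chromosome 1, 0.600% was under H3K27me3 mesas and 0% under canyons, and 69.1% was under none of the 4 lists of change. The long-arm end of chromosome 4 had 68.4% under none of them and the short-arm end of chromosome 16 had 70.8%. The lowest such share was 0.820%, at the long-arm end of chromosome 18.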
